A study of Homo sapiens with 6 samples.

Results

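A set of 8 transcription regulators of the embryonic kidney, SALL1, GATA3, PAX2, PAX8, LHX1, WT1, EYA1 and OSR1, were followed in HEK293, a widely used established cell line derived from human embryonic kidney. They were chosen by gene symbol, with earlier results of these data known, as 8 of the 57773 genes of the deposited table. Of these 8, 7 passed the filter on low counts that left 17805 genes for testing. Total RNA was sequenced in 3 libraries of HEK293 labelled as carrying a knockdown of TRDMT1, a methyltransferase that places m5C (a methylated cytosine) in tRNA, and in 3 libraries of HEK293 labelled control. How the knockdown was made, whether it is 1 clone and whether the 3 libraries of a group are separate cultures are all unstated in the labels. The p-values therefore reflect library-to-library spread, part or all of which may be technical.

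In the embryo these factors act one after another in the intermediate mesoderm, the strip of tissue that gives rise to kidney and gonad. OSR1 marks the earliest kidney progenitors, LHX1 and the paired-box factors PAX2 and PAX8 set up the nephric duct, and GATA3 keeps the duct cells from other fates. EYA1, SALL1 and WT1 act in the metanephric mesenchyme, which signals to the duct and later forms the nephrons, and WT1 stays on in podocytes.

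The libraries held 24776040 to 40088993 counts, with the larger totals in the libraries labelled knockdown. TRDMT1 showed no reduction under the knockdown label, at 0.58 RPKM (counts scaled by exonic length and by library total) in each of the 3, against 0.36, 0.36 and 0.28 RPKM in those labelled control (log2 fold change 0.61 ± 0.21 (SE), adjusted p = 0.0705, edgeR). It was called higher without control replicate 2 (0.79 ± 0.15, adjusted p = 0.00249), with GC and length trends removed (1.06 ± 0.29, adjusted p = 0.0436) and in 8 of 21 alternatives in all. This goes against the labels, so every direction below is between libraries as labelled. Control replicate 2 stood apart from the other libraries of its group, with 205.4 and 277 in a chi-square per degree of freedom against control replicates 1 and 3, which differed from each other by 26.2. Results that rest on it are given with and without it.

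Of 8 members, 7 were expressed at RPKM values between 0.61 and 11.52 in every library, and PAX8 was near 0. By mean level over all libraries the order was GATA3, SALL1, LHX1, EYA1, WT1, PAX2, OSR1 and PAX8. In the libraries labelled knockdown each neighbour in the order lay clear of the next except WT1 and EYA1 (2.20 ± 0.18 and 2.13 ± 0.16 RPKM, SD, n = 3 each), which overlapped. In the libraries labelled control the ranges of GATA3, SALL1, LHX1, EYA1, WT1 and PAX2 overlapped from neighbour to neighbour, and only PAX2 above OSR1 and OSR1 above PAX8 were clear. Among the tested genes, the mean RPKM of GATA3 stood at the 70.4 percentile and that of OSR1 at the 26.8 percentile.

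**Figure D1:**
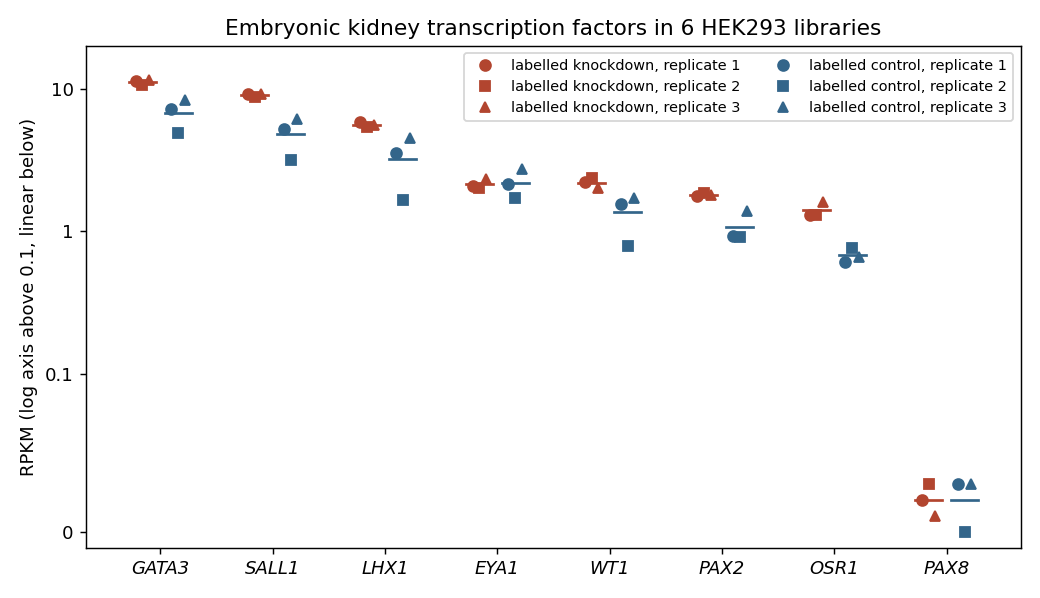
RPKM of the 8 members (vertical axis, logarithmic above 0.1 RPKM and linear below) in 3 libraries labelled knockdown (red) and 3 labelled control (blue), with symbols for replicates and bars for group means. The red points lie above the blue for GATA3, SALL1, LHX1, WT1, PAX2 and OSR1, overlap for EYA1, and lie at or below 0.03 RPKM in both groups for PAX8.

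RefSeq start-site sequence is shown for the most abundant member, GATA3, and for the paralogs PAX2 and PAX8, which differed in level. Start sites of 4 members (GATA3, PAX2, PAX8 and WT1) were matched by symbol. The windows are the 250 bases before the most upstream RefSeq start on build GRCh38.p14, which need not be the start used in these cells, at chr10:8045083-8045332 (+ strand) for GATA3, chr10:100735146-100735395 (+) for PAX2 and chr2:113278922-113279171 (−) for PAX8. Capitals mark a CCAAT box (CCAAT), GC box (GGGCGG) or TATA box (TATAAA) on either strand.
GATA3: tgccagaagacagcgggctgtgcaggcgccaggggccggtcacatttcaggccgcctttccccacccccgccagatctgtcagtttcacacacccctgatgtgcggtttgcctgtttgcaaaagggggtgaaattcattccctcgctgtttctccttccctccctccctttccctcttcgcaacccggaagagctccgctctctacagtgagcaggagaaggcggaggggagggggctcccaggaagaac
PAX2: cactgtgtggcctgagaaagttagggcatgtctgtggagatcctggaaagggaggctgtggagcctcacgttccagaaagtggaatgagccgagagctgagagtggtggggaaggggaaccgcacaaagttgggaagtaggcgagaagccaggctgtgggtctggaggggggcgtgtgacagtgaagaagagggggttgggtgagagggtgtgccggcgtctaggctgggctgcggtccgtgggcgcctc
PAX8: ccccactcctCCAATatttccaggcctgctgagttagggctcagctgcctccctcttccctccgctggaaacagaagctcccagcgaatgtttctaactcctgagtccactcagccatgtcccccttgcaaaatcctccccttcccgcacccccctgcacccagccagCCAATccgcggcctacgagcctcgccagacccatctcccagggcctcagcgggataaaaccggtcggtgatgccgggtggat
The windows of PAX2 and PAX8 each held 61.6% G and C, with 10 and 11 CG dinucleotides, and that of GATA3 held 60.8% with 11. Over 34788 distinct windows of the same length the median was 58% G and C and 11 CG dinucleotides. Of the elements searched, the PAX8 window held 2 CCAAT boxes, the window of WT1, not printed, held 1 GC box, and those of GATA3 and PAX2 held none, against 32% of all windows with a CCAAT box, 42.6% with a GC box and 10.8% with a TATA box. A match to these letters is a description of the sequence and not a measured site.

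Of the 7 tested members 3, SALL1, GATA3 and OSR1, were higher in the libraries labelled knockdown, and none was lower. The 3 rose by 1.71, 1.47 and 1.81-fold in mean CPM (counts scaled to library size with TMM factors), the scale of the folds in this paragraph. These factors were 1.06, 1.06 and 1.07 in the libraries labelled knockdown and 0.997, 0.812 and 1.03 in those labelled control. RPKM leaves them out and so gives larger ratios. PAX2, LHX1 and WT1 stood 1.5, 1.58 and 1.48-fold higher but did not pass the threshold, and EYA1 stood at 0.868-fold. Over all genes tested 9.29% were called higher and 14.7% lower by the same rule (adjusted p under 0.05, edgeR's quasi-likelihood test). The median log2 fold change of the 7 members was 0.58, beside −0.041 over all genes tested. In 6 of the 7 every library labelled knockdown lay above every library labelled control in CPM, which was the case for 23.9% of all genes tested. The members were chosen with earlier results of these data known, so these comparisons with all genes are description only.

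OSR1 (ENSG00000143867, chromosome 2), an odd-skipped zinc-finger factor of the earliest progenitors, stood at 1.31, 1.31 and 1.61 RPKM in the knockdown-labelled libraries and at 0.61, 0.76 and 0.66 RPKM in those labelled control. All 3 libraries labelled knockdown were above all 3 labelled control, and control replicate 2 was the highest control, in contrast to most other members. Its log2 fold change was 0.86 ± 0.22 (adjusted p = 0.0302, edgeR), from 7.04 ± 0.83 against 3.88 ± 0.95 CPM (SD, n = 3 each). The change was 1.08 ± 0.15 without control replicate 2 (adjusted p = 0.000418). Protein-coding genes of chromosome 2 had a median of −0.16.

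LHX1 (ENSG00000132130, chromosome 17), a LIM-homeodomain factor of the nephric duct, stood at 5.80, 5.36 and 5.61 RPKM in the knockdown-labelled libraries and at 3.54, 1.66 and 4.48 RPKM in those labelled control. The groups did not overlap, but the controls spread widely, with replicate 2 lowest, and LHX1 had the largest control coefficient of variation of the tested members (35.3%, against 4.15% in the libraries labelled knockdown). The log2 fold change was 0.66 ± 0.26 (adjusted p = 0.109, edgeR). It was smaller but called without control replicate 2 (0.41 ± 0.11, adjusted p = 0.0103) and called without control replicate 3 (0.90, adjusted p = 0.0421). An annotated antisense gene shares 367 exonic bases with LHX1 in GENCODE 29 and was not analysed here.

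PAX2 (ENSG00000075891, chromosome 10), a paired-box factor of duct and mesenchyme, stood at 1.78, 1.85 and 1.80 RPKM in the knockdown-labelled libraries and at 0.93, 0.91 and 1.39 RPKM in those labelled control. The groups did not overlap, and control replicate 3 came nearest to the libraries labelled knockdown. Its log2 fold change, 0.58 ± 0.18, just missed the threshold (adjusted p = 0.0512, edgeR). That call turned with small changes of procedure: DESeq2 gave 0.62 (adjusted p = 0.0107), and edgeR gave an adjusted p of 0.0121 without control replicate 2 and 0.0231 without control replicate 3.

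PAX8 (ENSG00000125618, chromosome 2), the close relative of PAX2 that also acts in the thyroid, was counted 5, 9 and 4 times in the knockdown-labelled libraries and 5, 0 and 5 times in those labelled control. It did not pass the filter on low counts and was not tested, and its 0 counts in control replicate 2 allow a level of up to 0.149 CPM (3 counts). Per exonic length, PAX2 stood 95, 55.2 and 132-fold above PAX8 in the libraries labelled knockdown, and 36.0 and 54.5-fold above it in control replicates 1 and 3. Against a floor of 3 counts for PAX8, PAX2 was at least 55.0-fold higher in control replicate 2. Over all libraries the ratio was 75.6 (95% Wilson interval 52.1 to 110, counting error only). The groups were not tested against each other, since the value of control replicate 2 is a bound. PAX8-AS1, which overlaps PAX8 on the opposite strand, had 11, 4 and 11 counts against 4, 2 and 1.

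GATA3 (ENSG00000107485, chromosome 10), a zinc-finger factor of the duct, was the most abundant member, at 11.29, 10.68 and 11.52 RPKM in the knockdown-labelled libraries and 7.26, 4.90 and 8.28 RPKM in those labelled control. All 3 libraries labelled knockdown lay above the controls, of which replicate 2 was lowest. Its log2 fold change was 0.56 ± 0.14 (adjusted p = 0.0321, edgeR), from 34.1 ± 1.3 against 23.2 ± 3.32 CPM (SD, n = 3 each), and 0.46 ± 0.09 without control replicate 2. The divergent transcript GATA3-AS1, which shares no exonic bases with GATA3, stood at −0.07 ± 0.39 (adjusted p = 0.908). PAX2 and GATA3 lie on the same chromosome, whose tested protein-coding genes had a median of −0.08.

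SALL1 (ENSG00000103449, chromosome 16), a zinc-finger repressor of the mesenchyme that recruits the NuRD chromatin complex, stood at 9.19, 8.79 and 9.25 RPKM in the knockdown-labelled libraries and at 5.18, 3.15 and 6.09 RPKM in those labelled control. The groups did not overlap, and control replicate 2 was again lowest. The log2 fold change was 0.77 ± 0.17 (adjusted p = 0.0204, edgeR), and 0.62 ± 0.09 without control replicate 2 (adjusted p = 0.000402). The 655 tested protein-coding genes of chromosome 16 had a median of 0.52, and SALL1 lay 0.25 above that median.

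WT1 (ENSG00000184937, chromosome 11), a zinc-finger factor of mesenchyme and podocytes, stood at 2.22, 2.36 and 2.01 RPKM in the knockdown-labelled libraries and at 1.55, 0.79 and 1.72 RPKM in those labelled control. The groups did not overlap, and the log2 fold change of 0.56 ± 0.23 was not called (adjusted p = 0.12, edgeR). It was 0.36 ± 0.13 without control replicate 2 (adjusted p = 0.0415), and the chromosome 11 median was 0.31. WT1-AS, which starts at the same promoter region and shares 113 exonic bases with WT1, had 42, 34 and 46 counts against 19, 15 and 19 (0.49 ± 0.24, adjusted p = 0.171). No source used here gives the strand setting of the counting, so reads within those shared bases, a small part of the 4113 exonic bases of WT1, may belong to either gene.

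EYA1 (ENSG00000104313, chromosome 8), a phosphatase and coactivator that works with homeodomain partners of the sine oculis family, was the one tested member whose groups overlapped, at 2.08, 2.00 and 2.31 RPKM in the knockdown-labelled libraries and 2.15, 1.70 and 2.74 RPKM in those labelled control. Its log2 fold change was −0.20 ± 0.16 (adjusted p = 0.367, edgeR), and the chromosome 8 median was −0.12. On the log2(RPKM + 1) scale, a two-sided exact permutation test gave p = 0.9 for EYA1, p = 1 for PAX8 and p = 0.1, the smallest possible, for each of the other 6 members.

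**Figure D2:**
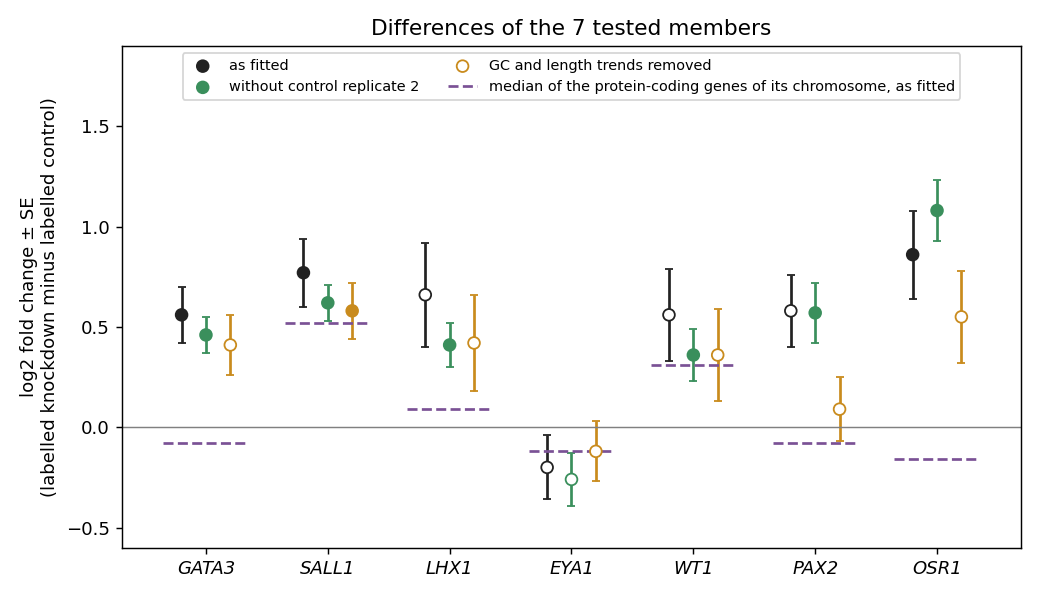
Log2 fold change ± SE (vertical axis, labelled knockdown minus labelled control) of the 7 tested members as fitted, without control replicate 2 and with GC and length trends removed, where filled points have an adjusted p under 0.05 by edgeR. Dashed lines give the median over the protein-coding genes of each member's chromosome, 0.52 for SALL1 on chromosome 16 and −0.16 for OSR1 on chromosome 2.

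No member was called after control replicate 1 or any library labelled knockdown was left out: the adjusted p of SALL1 was then 0.0722 without control replicate 1 and 0.0788 to 0.0901 without a library labelled knockdown, that of GATA3 0.0919 and 0.106 to 0.134, and that of OSR1 0.0804 and 0.0965 to 0.135. OSR1 was not called without control replicate 3 either (0.0591). Where a call was lost in this way, the log2 fold changes stayed near those of the full set, at 0.76 to 0.83 for SALL1, 0.54 to 0.61 for GATA3 and 0.76 to 0.92 for OSR1. Over all genes, those fits called 1.87%, 1.94% and 1.71% higher without knockdown-labelled replicates 1, 2 and 3, and 3.64% higher without control replicate 1. Without control replicate 2, SALL1, GATA3, OSR1, PAX2, LHX1 and WT1 were called higher, beside 22.9% of all genes called higher and 25.6% lower. Without control replicate 3, SALL1, GATA3, PAX2 and LHX1 were called, beside 12.4%. Control replicate 2 was the lowest control in CPM for 5 of the 7 tested members, and control replicate 3 the highest for 6 of 7. The coefficient of variation over the 3 libraries ran from 1.98% to 11.7% in knockdown-labelled libraries and from 13.7% to 35.3% in those labelled control.

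With other procedures the number of members called higher is set beside the share of all genes called higher. It was 4 with RLE size factors (9.92%), 3 with library totals (10.6%), 4 with upper-quartile scaling (11.3%), 3 without a filter (5.27%), 4 with a stricter filter (10.7%) and 4 without robust estimation (9.61%). DESeq2 called 4 (11.7%), limma-trend 4 on log2(RPKM + 1) (12.9%) and 2 on log2(RPKM + 0.1) (11.4%), and voom with sample quality weights 6 (27.6%). The count was 1 with base composition and length trends removed (8.05%), 1 with replicate numbers as a block (6.21%) and 0 with that block and GC and length trends removed (4.98%). The members' count was highest, at 6, where the share over all genes was also highest, without control replicate 2 and with sample weights, but was 3 at a share of 22.2%, without control replicate 2 and with GC and length trends removed.

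Over all tested genes the differences moved with the base composition of the transcripts. The G and C share of the longest GENCODE 29 transcript was 63.3% for PAX2, 55.8% for OSR1, 53.7% for GATA3, 53.6% for LHX1, 53.4% for WT1 and 50.1% for SALL1, and 43.3% for EYA1, against a median of 48.8% over 17419 tested genes. The 6 members with values above 0 thus had more G and C than the median gene, and EYA1 had less. Among those 6, SALL1, with the least G and C, had a log2 fold change of 0.77. OSR1, next below PAX2 in G and C, stood at 0.86, and PAX2, with the most, at 0.58. Across 5 equal parts of the tested genes by G and C share, the median log2 fold change ran from −0.51 in the lowest to 0.26 in the highest.

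With trends against G and C share and exonic length removed from each library, 1 member, SALL1, was still called (0.58 ± 0.14, adjusted p = 0.0323, edgeR), while GATA3 (0.41 ± 0.15, adjusted p = 0.0985) and OSR1 (0.55 ± 0.23, adjusted p = 0.131) were not. PAX2, the member with the most G and C, moved most, to 0.09 ± 0.16 (adjusted p = 0.7), and to −0.05 ± 0.18 when the shares of A, C and G were used separately, an alternative chosen after seeing the data. LHX1 stood at 0.42 ± 0.24, WT1 at 0.36 ± 0.23 and EYA1 at −0.12 ± 0.15. With the trends removed and control replicate 2 left out, also chosen after seeing the data, SALL1 (0.45 ± 0.07), GATA3 (0.27 ± 0.08) and OSR1 (0.82 ± 0.15) were called, with adjusted p of 0.000821, 0.0169 and 0.00168, beside 22.2% of all genes called higher. Over all genes, 8.55% were called higher and 13.3% lower with GC and length trends removed. Whether composition produced the differences was not tested.

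**Figure D3:**
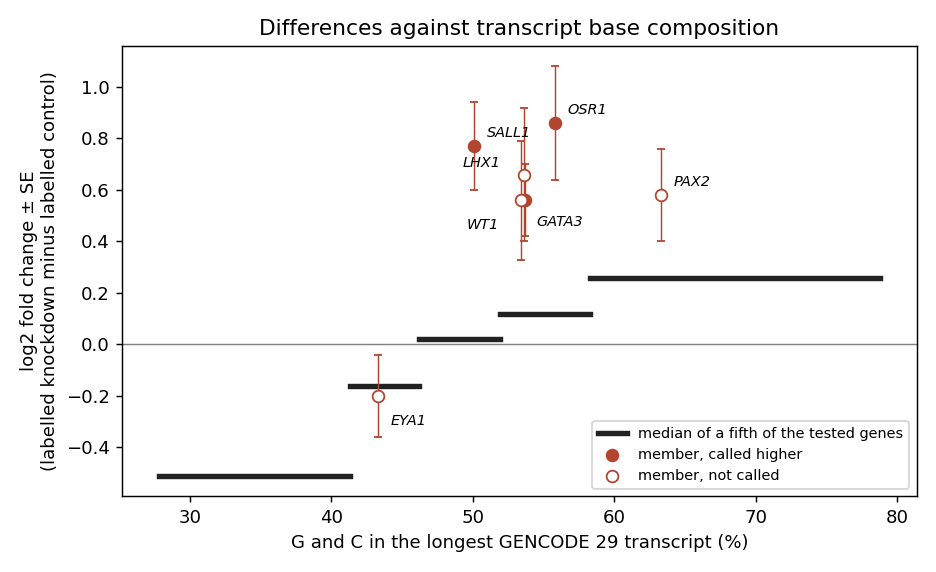
Log2 fold change ± SE (vertical axis) of the 7 tested members against the percentage of G and C in their longest transcript (horizontal axis), with filled points for called members. Black bars span the 5 equal parts of all tested genes and lie at their medians, from −0.51 to 0.26. Every member but EYA1 lies above the bar of its own part.

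Other genes of kidney development were read from lists chosen with earlier results of these data known. Their counts stand beside the 9.29% of all genes called higher and the 14.7% called lower. Of 39 tested transcription factors of kidney development outside the members, 7 were higher and 1 lower, with a median log2 fold change of 0.31. The forkhead factor FOXC1 (45.9 ± 3.29 against 24.9 ± 3.55 RPKM, log2 fold change 0.72 ± 0.11, adjusted p = 0.00572, edgeR), SOX9, a factor of branching tips (0.81 ± 0.22), and TFAP2A (0.64 ± 0.11) had the largest rises under the rule for named genes. MECOM fell by 0.72, with groups that overlapped in RPKM but not in CPM. With GC and length trends removed the list held 4 higher and 5 lower with a median of 0.01, so its lean to higher values was not kept.

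Of 35 tested targets and signals of the nephric lineage, 9 rose and 5 fell, beside 9.29% and 14.7% of all genes tested. The median log2 fold change was 0.39. The guidance ligand SLIT2 stood at 23.2 ± 1.06 against 8.51 ± 4.10 RPKM (1.32 ± 0.29, adjusted p = 0.0188, edgeR), IGF2, a growth factor, at 1.01 ± 0.24, and the Notch ligand JAG1 at 0.84 ± 0.11. GDNF, the mesenchymal ligand that draws out the ureteric bud and a known target of EYA1, SALL1 and PAX2, fell by 0.89 (0.763 ± 0.032 against 1.27 ± 0.51 RPKM, adjusted p = 0.0402). BMP4 (−0.70) and the R-spondin receptor LGR5 (−0.69) also fell. The median of chromosome 14, where BMP4 lies, was −0.50, and the groups of LGR5 overlapped in RPKM but not in CPM. RET, the receptor of GDNF and a target of GATA3, was higher but low, at 0.533 ± 0.085 against 0.197 ± 0.050 RPKM (adjusted p = 0.0262), and was chosen after its values were seen. With trends removed, the median was 0.30, from 6 called higher and 4 called lower.

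**Figure D4:**
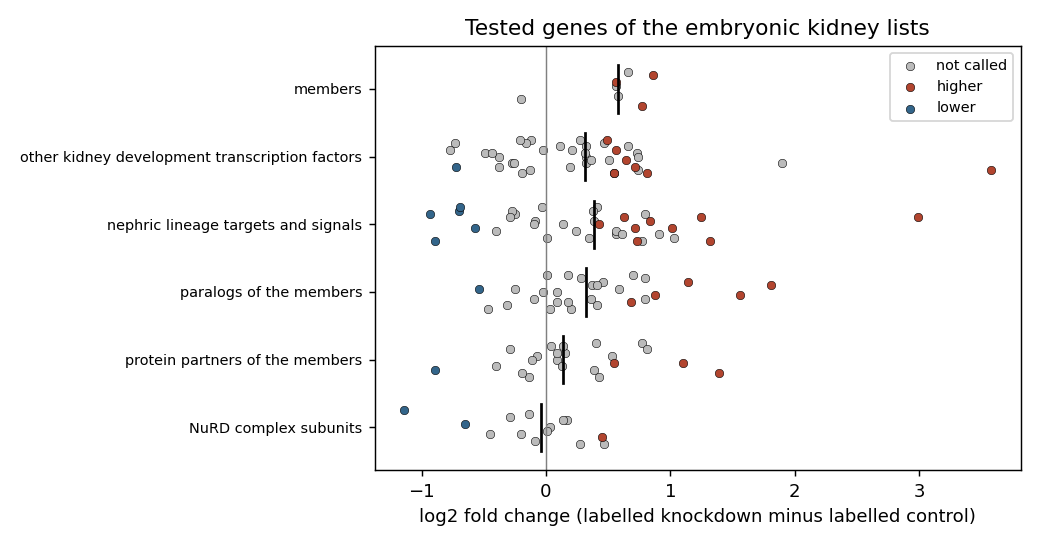
Log2 fold change (horizontal axis, labelled knockdown minus labelled control) of each tested gene in 6 lists, coloured by whether it was called higher (red), called lower (blue) or not called (grey), with black bars at list medians. The members have a median of 0.58 and the NuRD subunits of −0.04.

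Among 28 tested relatives of the members, 5 rose and 1 fell, and the median was 0.32. EGR1, whose zinc fingers resemble those of WT1 (1.56 ± 0.41), LMX1B, a LIM-homeodomain factor (1.14 ± 0.27), and PAX7 (0.88 ± 0.15, adjusted p = 0.00746, edgeR) were higher, and EYA4, a relative of EYA1, fell by 0.54 (4.67 ± 0.26 against 6.08 ± 1.13 RPKM, ranges that overlap in RPKM but not in CPM). Of 22 tested protein partners, 3 were higher and 1 lower (median 0.14). The coactivator CREBBP (1.39 ± 0.36) and the GATA cofactor ZFPM1 (1.10 ± 0.13) were higher, both on chromosome 16 like SALL1, as was the corepressor TLE4 (0.55 ± 0.10), and WTAP, a WT1-binding protein of the m6A writer, fell by 0.89. Of 14 NuRD subunits, 1 was higher, MTA2 (0.45 ± 0.11), and 2 were lower, HDAC2 (−1.14 ± 0.14) and MTA1 (−0.65 ± 0.16). The list had a median of −0.04. The chromosome medians were 0.31 for MTA2 (chromosome 11), −0.14 for HDAC2 (chromosome 6) and −0.50 for MTA1 (chromosome 14). For each list in this paragraph the shares over all genes were 9.29% called higher and 14.7% called lower. With GC and length trends removed, 3 relatives were higher and 1 lower (median 0.18), and 3 partners higher and 1 lower (−0.06). Of the NuRD subunits, 0 were then higher and 1 lower (−0.17), beside 8.55% and 13.3% of all genes. Without control replicate 2, 12 relatives were higher and 2 lower, 9 partners higher and 3 lower, 2 NuRD subunits higher and 4 lower, 14 of the other kidney factors higher and 7 lower, and 20 lineage targets higher and 5 lower, in a fit that called 22.9% of all genes higher and 25.6% lower.

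Markers of differentiated kidney were mostly absent. Of 18, 13 had a mean under 0.1 RPKM, and UMOD, SLC22A6, SLC22A8 and ATP6V1B1 had no counts in any library. Of 6 tested, 1 was higher and 2 were lower, beside 9.29% and 14.7% of all genes tested. With GC and length trends removed, 0 of the 6 were higher and 2 lower, beside 8.55% and 13.3% of all genes. Without control replicate 2, 2 of 8 tested were higher and 3 lower, beside 22.9% and 25.6%. The endocytic receptor LRP2 stood at 2.39 ± 0.22 against 1.08 ± 0.29 RPKM (0.95 ± 0.24, adjusted p = 0.0289, edgeR), while the water channel AQP1 fell by 1.05 (adjusted p = 0.0137) and the potassium channel KCNJ1 by 2.15 (adjusted p = 0.028), both under 1 RPKM in every library. Thus LRP2 lay within the range of the 7 expressed members, while most of the listed markers of differentiated kidney had a mean under 0.1 RPKM. In the libraries labelled control AQP1, at 0.87, 0.60 and 0.68 RPKM, was at a level like that of OSR1 (0.61, 0.76 and 0.66 RPKM). These values do not settle which tissue the cells resemble.

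Markers of other cells differed in part between the groups. Neural and adrenal markers summed to 98.4 to 103 RPKM in knockdown-labelled libraries and to 60.1 to 116 in those labelled control, ranges that overlap, mostly neurofilament light chain NEFL (53.0 ± 2.8 against 49.9 ± 12.3 RPKM, log2 fold change −0.07 ± 0.14). Of 12 tested, 2 were higher, the neurofilament NEFH (2.85 ± 0.19, adjusted p = 0.00034, edgeR) and the tubulin TUBB3 (1.63 ± 0.22), and 0 lower. Endothelial, blood and fibroblast markers summed to 17.8 to 19.4 against 5.34 to 12.8 RPKM, and of 7 tested 2 were higher and 1 lower. Beside the counts of both lists stand 9.29% of all genes called higher and 14.7% called lower. Without control replicate 2, 4 of 12 neural and adrenal markers were higher and 1 lower (median −0.01, against 0.29 with it). Of 8 endothelial, blood and fibroblast markers then tested, 4 were higher and 1 lower (median 0.80, against 0.38). That fit called 22.9% of all genes higher and 25.6% lower. Smooth-muscle actin ACTA2 made up most of the endothelial, blood and fibroblast sum (12.6 ± 0.79 against 5.28 ± 2.04 RPKM). The collagen COL1A2, chosen after its values were seen, had 159, 139 and 177 counts against 0, 0 and 0. It was at least 31.8-fold higher in CPM against a floor of 3 counts in each library labelled control. The fibroblast proteoglycan LUM fell by 1.62 (adjusted p = 0.0364), and the endothelial receptor KDR, at 0.647 ± 0.071 against 0.207 ± 0.17 RPKM with no overlap, was not called (1.41 ± 0.58, adjusted p = 0.119). The blood markers MS4A1 and HBB had no counts, and the endothelial CDH5 and the leukocyte PTPRC had a mean under 0.1 RPKM. All of these are transcripts in libraries labelled HEK293. Whether other cells were present, or had a part in the members' differences, was not tested.

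The profiles most like that of GATA3 over the 6 libraries, by root mean square difference of centred log2 CPM among 7695 genes whose mean RPKM was 5 or more, were those of SCARA3 (0.027), MAU2 (0.029) and SOX4 (0.037). Those most like SALL1 were PLCB3 (0.028), TAF6 (0.030) and KDM4B (0.030). Likeness over 6 libraries that fall into 2 labelled groups describes the shared group difference and the low control replicate 2, which the distances do not separate.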

How the data were processed

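RNA was ribosome-depleted, treated with a bisulfite kit and made into stranded total RNA libraries, per the labels' protocols. No source used here says whether the deposited values come from treated libraries. The deposited table holds read counts per gene, not normalized, and RPKM, which equal the deposited counts scaled by exonic length and column total (within 0.006 for 100% of values). Per the submitters' processing notes, HTSeq 0.6.1, StringTie 1, DESeq2 1.6.3 and edgeR 3.4.6 were among the tools and hg19 was the build, and the role of each is not given. Columns were tied to samples by the second name in each description; they carry C for knockdown titles and TK for control titles.

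The main test was edgeR's quasi-likelihood test (edgeR 4.0.16, R 4.3.3, TMM, filterByExpr, robust), adjusted by Benjamini-Hochberg over 17805 genes, threshold 0.05, both groups sharing the spread. Fold changes are labelled knockdown minus labelled control. Trends were fitted per library with mgcv 1.9.3 and used as offsets for 97.8% of the tested genes; composition and chromosome came from GENCODE 29, by identifier or, for 117 genes, by symbol. That is another build, so no gene coordinates are given; promoter windows come from RefSeq. Alternatives used DESeq2 1.42.0 and limma 3.58.1. In simulated data the main test called 23.2% of 99 genes set to an absolute log2 fold change of 1, and 86.6% of 97 set to 2. Of its calls, 6.96% were false. Far fewer genes were changed in the simulation than were called in the data. Each gene had the same spread in both groups, with no library set apart and no composition trend. These shares may therefore not hold for the real libraries. All members' changes in the main fit were smaller than 1, so a member not called is not shown to be unchanged. No 2 libraries agreed within sampling noise. Floors of 3 counts and 95% intervals cover counting error only.

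Members and lists were chosen with earlier results of these data known. Named genes were the members, TRDMT1, in each list the called genes with the 3 largest rises and 3 largest falls (groups not overlapping, at least 1 RPKM in the higher group), listed antisense neighbours (3 of 8 symbols matched), and the 3 genes nearest in profile to the 2 most abundant members. All other genes named, such as markers named for being absent, lower or abundant, were chosen after their values were seen.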

Additional observations from a re-analysis of the deposited data

How the results depend on the processing

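Under 21 alternatives, every tested member kept its direction except PAX2, which stood at −0.05 with base composition and length trends removed. The member count of 3 higher was 2 to 4 under other scalings, filters, tools and pseudocounts, but 6 with voom and sample quality weights, 1 with GC and length trends removed, 1 with base composition and length trends removed, 1 with the replicate block and 0 with the block and GC and length trends removed. Leaving out 1 library gave 0 to 6 members higher, 305 to 4279 of all genes higher and 886 to 4784 lower. Replicate numbers did not pair the libraries (same-numbered deviations correlated at −0.04, 0.057 and 0.001, and of the knockdown-labelled libraries only replicate 2 correlated best with its own number), and under the replicate block SALL1 was called (0.79, adjusted p = 0.0314) while GATA3 (0.57, 0.0659) and OSR1 (0.88, 0.0597) were not; the block called 1105 genes higher and 1871 lower.

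Of all genes, 1654 were higher and 2613 lower as fitted. Library totals without scaling moved the median of all genes from −0.041 to 0.13 and gave 1888 higher and 1649 lower; limma-trend gave 2299 higher and 1527 lower on log2(RPKM + 1) and 2021 and 1530 on log2(RPKM + 0.1); voom gave 4918 and 5299; trends removed without control replicate 2 gave 3874 and 4916; and the block with trends removed gave 868 and 1474. The cause of these moves was not tested. The mean log2 ratio of PAX2 to PAX8 (6.02, with the floor of 3 counts) ran from 5.82 to 6.19 without 1 library, and the order of levels did not change under TMM scaling or without 1 library. PAX8, at 0 to 9 counts, is limited by depth.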
